A study of Mus musculus with 18 samples.

Results

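The comparison concerned CD8 T cells sorted from MC38 tumours and the transcripts that differed when D18 was added to anti-PD-1 antibody. It used the 6 libraries that the labels give as CD8 T, of 18 in the series. Of these, 3 came from mice given anti-PD-1 antibody plus D18 (below, D18) and 3 from mice given anti-PD-1 antibody alone (below, anti-PD-1). All mice were C57BL/6 females, 6 weeks old when MC38 cells, a mouse colon carcinoma line, were put under the skin. Treatment began at an average tumour size of 100 mm3 and lasted 2 weeks, during which every mouse received 200 µg of the antibody 2 times a week. The D18 group also received 25 µg of D18 1 time a week, an agent known in the sources only by this code. No group went without the antibody, so the contrast is between PD-1 blockade with D18 and PD-1 blockade without it. Mice were pooled before the groups were formed, and the sources do not tie a library to an animal, so each p-value below measures the spread between these samples, which may be technical. The table lists 46983 genes, of which 14497 had a read in these libraries and 1569 had a mean of at least 10 normalised reads (reads after division by the size factor of their library) and were tested.

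CD8 T cells recognise peptides on MHC class I molecules through the T cell receptor, its CD3 chains and the coreceptor CD8, and kill by releasing granules that hold perforin and granzymes. PD-1, the product of Pdcd1, is an inhibitory receptor that antigen-experienced T cells display, and the antibody keeps it from its ligands. In tumours that persist, CD8 T cells range from stem-like cells that express the transcription factor gene Tcf7 to exhausted cells rich in inhibitory receptors, while effector-memory cells express genes such as Ly6c2 and the integrin gene Itgal.

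The libraries held 55823, 266392 and 77993 reads with D18 (replicates 1 to 3) and 78210, 189711 and 143466 reads with anti-PD-1. A count of 0 allows up to 3 reads at 95% confidence, which is 11.3 to 53.7 CPM (counts scaled to a common library total) in these libraries and covers counting error only. Mitochondrial genes took 8.34%, 5.43% and 25.1% of the reads with D18 and 12.8%, 14.5% and 26.9% with anti-PD-1. Anti-PD-1 replicates 1 and 2 had 0 reads of mt-Atp6, mt-Co2 and mt-Co3, while the other 4 libraries had 45 to 196. The same pair had the smallest shares of pseudogene reads, 0.509% and 0.231% of nuclear reads, against 0.712% to 2.22% in the other 4. No label names a batch, but a within-set change can be given from a model with these sets as a term (below, within the set). It rests on anti-PD-1 replicate 3 as the single anti-PD-1 library beside the D18 libraries, taken to vary like the others.

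Genes of the sorted cell type were present in every library, beside genes of macrophages. Cd8a, the coreceptor alpha chain, had 58, 585 and 28 reads with D18 and 52, 456 and 45 with anti-PD-1. Cd8b1, its beta chain, had 83, 388 and 33 reads with D18 and 56, 301 and 36 with anti-PD-1, and the CD3 chain gene Cd3e had 37, 209 and 19 with D18 and 47, 116 and 30 with anti-PD-1. All 3 markers were lowest, as a share of reads, in the libraries numbered 3. Cd4, the coreceptor of helper T cells, had 0, 0 and 1 reads with D18 and 0, 0 and 4 with anti-PD-1. The list of 19 T cell receptor complex and coreceptor genes summed to 11357, 15218 and 4372 CPM with D18 and 9193, 13489 and 2990 CPM with anti-PD-1. The list of 27 monocyte and macrophage markers summed to 1433, 4186 and 28067 CPM with D18 and 28436, 23594 and 42275 CPM with anti-PD-1. Macrophage reads thus exceeded T cell reads in D18 replicate 3 and in every anti-PD-1 library, but not in D18 replicates 1 and 2. The B cell list summed to 89.6, 30.0 and 564 CPM with D18 and 371, 590 and 697 CPM with anti-PD-1. The B cell marker Ms4a1, the NK cell marker Ncr1, the neutrophil marker S100a8 and the stromal marker Col1a1 had 0 reads in each library, and Foxp3, of regulatory T cells, had 0, 0 and 2 with D18 and 0, 0 and 4 with anti-PD-1. Lists of NK, helper or regulatory T, neutrophil and epithelial or stromal markers had 0 members high enough to test. Since these are bulk samples, fewer cells of a type and less RNA per cell cannot be told apart. The libraries numbered 3 stood apart in cell content. The counts of called genes are given with and without them, as are the macrophage list and the values that turned sign. Anti-PD-1 replicate 3, on which every change within the set rests, had the lowest T cell receptor sum and the highest macrophage sum. Changes within the set therefore also hold this difference in cell content.

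**Figure D1:**
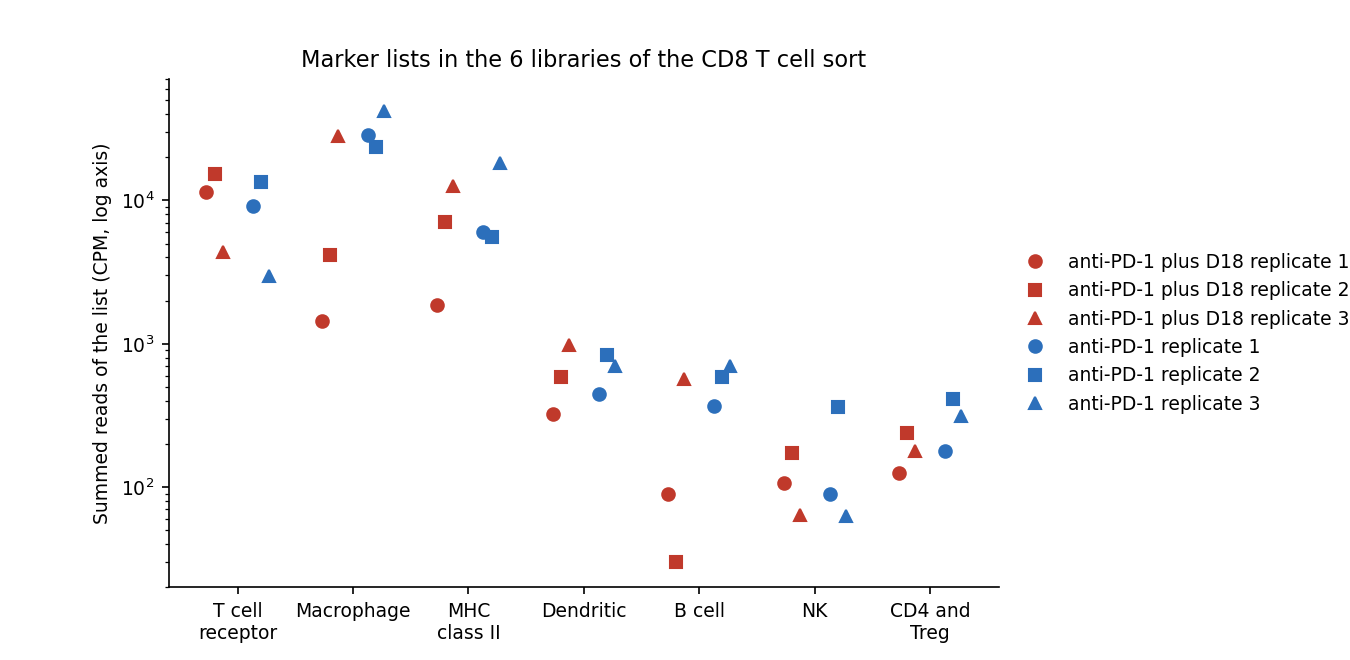
Summed reads of 7 marker lists in the 6 CD8 T libraries (CPM, log axis), with D18 in red left of anti-PD-1 in blue and the replicate number as the symbol. The macrophage list lies at 1433 and 4186 CPM in D18 replicates 1 and 2 and between 23594 and 42275 CPM in the other 4 libraries, while the T cell receptor list is lowest in the libraries numbered 3 of both groups.

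Tested gene by gene without a block, no gene passed an adjusted p of 0.05 (0 of 1569, a background of 0%, with a smallest adjusted p of 0.534 by limma). Before adjustment 130 genes had a p under 0.05, 50 of them higher and 80 lower with D18. The weighted test of limma-voom likewise called 0 genes, with 176 under 0.05 before adjustment. Over all tested genes the median log2 change was -0.03, 48.3% were higher with D18, and the median standard error was 0.55. The 2 groups did not overlap for 228 genes (14.5%), 108 of them higher with D18 (6.88%) and 120 lower (7.65%). Libraries with the same number deviated together from their group means (correlations of 0.36, 0.51 and 0.56). No label says what a number stands for, so the pairing was taken from these same values. The blocked p-values are not independent of that choice. Values with the replicate number as a block are given wherever they change a call. The block called 20 genes (1.27%), 9 higher and 11 lower with D18. These were Gzma, Lars2, Crip1, Ctla2a, Itgal, Ly6c2, AW112010, Malat1 and S100a10 on the higher side, and Serpina3g, mt-Nd1, Gpx1, mt-Co1, Grn, mt-Nd5, Sat1, Pdcd1, Fcgr2b, mt-Cytb and Cd72 on the lower side. The blocked count was 15 without the libraries numbered 1 and 28 without those numbered 2. Without those numbered 3, the pair with the lowest T cell content, it was 1, the macrophage gene Apoe, and none of the 20. Within numbers 1 and 2 the block compares libraries on both sides of the mt-Co2 difference, and with that difference as a term 0 genes passed (60 with an unadjusted p under 0.05).

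**Figure D2:**
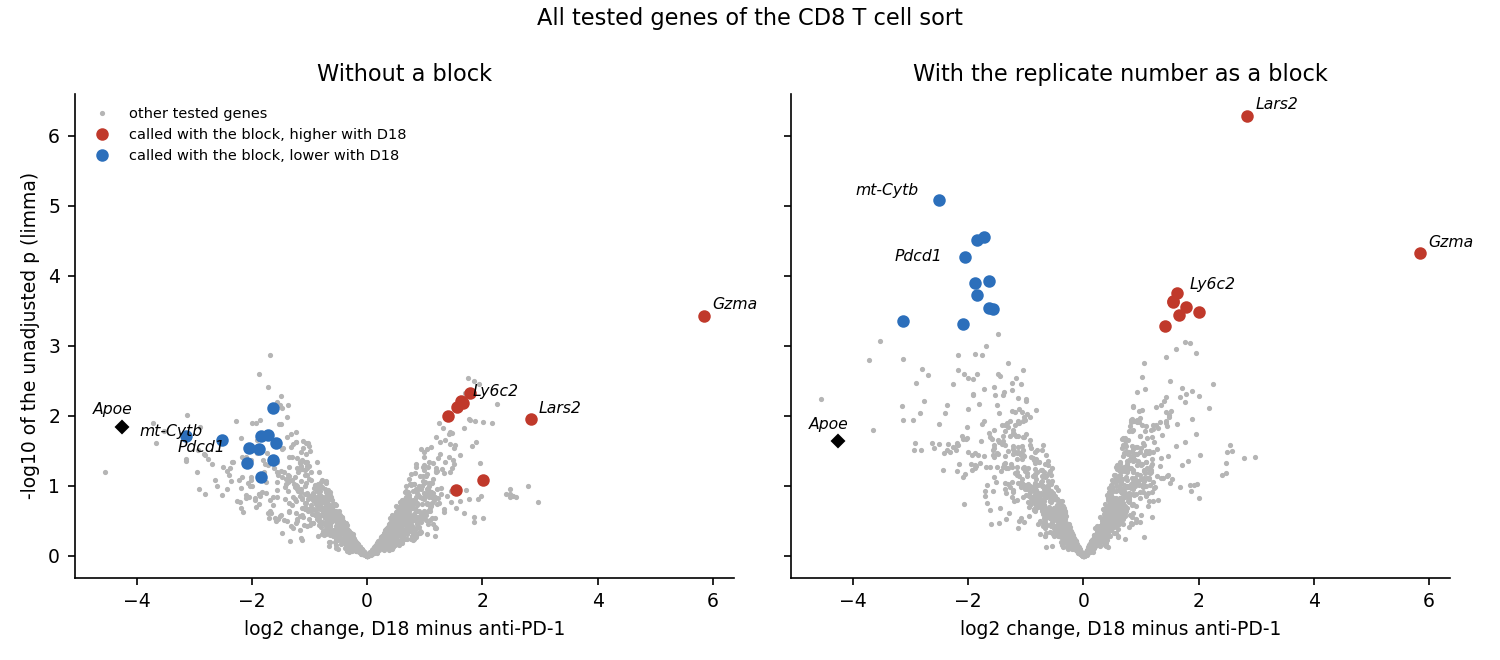
Log2 change (D18 minus anti-PD-1) against −log10 of the unadjusted limma p for the 1569 tested genes, without a block (left) and with the replicate number as a block (right). The 20 genes called with the block are coloured, 9 in red on the higher side and 11 in blue on the lower side, and Apoe is a black diamond. Gzma has the largest positive change, 5.85, and the block moves the coloured genes up while their changes stay as they are.

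Gzma, which encodes granzyme A, a serine protease of cytotoxic granules, set the groups apart most clearly. It had 17, 350 and 28 reads with D18, against 0, 0 and 0 with anti-PD-1. Every D18 library was above its counting floor and no anti-PD-1 library held a read. Pooled over the group, D18 libraries held 987 CPM, which is at least 135-fold higher than the 7.29 CPM that 3 reads over the anti-PD-1 group allow, and at least 46.1-fold higher without D18 replicate 2. The fitted log2 change was 5.85 ± 1.04 (SE, n = 3 per group), a value held down by the pseudocount of 1, with an adjusted p of 0.534 without the block and 0.0141 with it. Gzma lies on mouse chromosome 13 (chr13:113093825-113100981, mm10, minus strand) as gene ENSMUSG00000023132.7. Its promoter, 250 bases before to 50 after the start (chr13:113100932-113101231, minus strand, RefSeq on GRCm38.p6), is shown because no other tested gene separated the groups in this way on the higher side. The capitals mark a match to the interferon-stimulated response element, here GAAA, any 2 bases and GAAA again, searched on both strands and here on the reverse, which 3.49% of 27025 promoters of this length hold.
Gzma: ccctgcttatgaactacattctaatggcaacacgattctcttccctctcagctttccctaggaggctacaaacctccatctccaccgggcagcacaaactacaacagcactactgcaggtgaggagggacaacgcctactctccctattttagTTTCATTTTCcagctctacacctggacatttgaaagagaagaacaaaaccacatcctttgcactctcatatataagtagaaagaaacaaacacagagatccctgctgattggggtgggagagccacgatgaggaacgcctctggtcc
Such a match is a description of the letters and not evidence of binding.

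The other cytotoxic genes moved less and in both directions. Of 23 list members, 15 were high enough to test, 10 of them above 0 and 5 below it, and the median log2 change was 0.57, against -0.03 over all genes. With 1 library left out the median ran from 0.03 (without anti-PD-1 replicate 3) to 1.01 (without anti-PD-1 replicate 2), and by number it was 0.99, -0.21 and 0.41. Within the set it was 1.23, with 11 of 15 above 0. With the block 1 of the 15 passed, Gzma, beside 1.27% of all tested genes. Tnf, the gene of an inflammatory cytokine, had 59.8, 13.3 and 28.6 normalised reads with D18, against 2.70, 12.8 and 10.6 with anti-PD-1. Its groups did not overlap, by a margin of less than 1 normalised read between the nearest libraries, and its log2 change of 1.82 ± 0.69 had an adjusted p of 0.564 (0.238 with the block). Gzmb, the gene of the apoptosis-inducing granzyme B, had 271, 189 and 135 normalised reads with D18 and 115, 246 and 40.4 with anti-PD-1 (0.86 ± 0.66, adjusted p = 0.715). Gzmk, a granzyme gene of less differentiated CD8 T cells, had 56.1, 51.7 and 18.5 normalised reads with D18 and 31.0, 44.4 and 9.61 with anti-PD-1, so the groups overlapped. The pore-forming Prf1 had 11.2, 26.0 and 3.37 normalised reads with D18 and 5.39, 113 and 24.0 with anti-PD-1 (-1.22 ± 1.08, adjusted p = 0.726). Ifng, the gene of interferon-gamma, had 82.2, 18.5 and 30.3 normalised reads with D18 and 6.74, 79.4 and 17.3 with anti-PD-1 (0.72 ± 0.90), and the high library was a different number in each group. Nkg7, a granule membrane protein gene, had 391, 317 and 153 normalised reads with D18 and 197, 303 and 85.5 with anti-PD-1 (0.63 ± 0.59).

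Because the libraries differed in T cell content, the same genes were also set against the 19 T cell receptor list genes. Per 100 reads of that list, Gzma had 2.68, 8.63 and 8.21 reads with D18 and 0, 0 and 0 with anti-PD-1. On this scale Nkg7 no longer overlapped, with 33.0, 22.9 and 26.7 with D18 and 20.3, 21.3 and 20.7 with anti-PD-1, while Gzmb, Prf1, Ifng and Tnf did. Over all tested genes, 1.47% did not overlap on the higher side and 5.99% on the lower side on this scale. Of the 20 genes called with the block, 3 of the higher ones (Gzma, Ctla2a and Itgal) and 2 of the lower ones (Pdcd1 and Serpina3g) did not overlap on it, and the other 15 did.

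A second gene, chosen after its values were seen, was read in a single group in the other direction. Trbv17, a variable segment of the T cell receptor beta chain, had 0, 0 and 0 reads with D18, against 13, 99 and 12 with anti-PD-1. Among the 15 Trbv genes with a read, it made up 29.5%, 44.8% and 52.2% of the Trbv reads with anti-PD-1. With D18 it made up 0 of 250 Trbv reads, which allows a share of up to 1.20%, or up to 7.69% of the 39 reads left without D18 replicate 2. The fitted change of -4.55 ± 2.15 had an adjusted p of 0.617 (0.128 with the block, and past the threshold with the block once the libraries numbered 1 were left out). Trbv2 was likewise read with anti-PD-1 alone, with 0, 0 and 0 reads with D18 and 1, 35 and 3 with anti-PD-1, and Trbv12-1 had 0, 0 and 0 reads with D18 and 0, 11 and 1 with anti-PD-1. Trbv19 was read with D18 alone, with 8, 9 and 1 reads with D18 and 0, 0 and 0 with anti-PD-1. Trbv13-1, the Trbv gene with the next most reads after Trbv17, took 10.0%, 28.0% and 0% of Trbv reads with D18 and 45.5%, 1.36% and 8.70% with anti-PD-1. Of the 14497 genes with a read, 5 had at least 3 reads in each D18 library and 0 in each anti-PD-1 library. The converse held for 16 of the 14497. The 5 were Gzma, the small GTPase gene Rab37, the transcription factor gene Irf4, the acetyltransferase gene Kat2b and Zfp524. Irf4, a factor downstream of the T cell receptor, had 3, 10 and 6 reads with D18, too few to test.

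**Figure D3:**
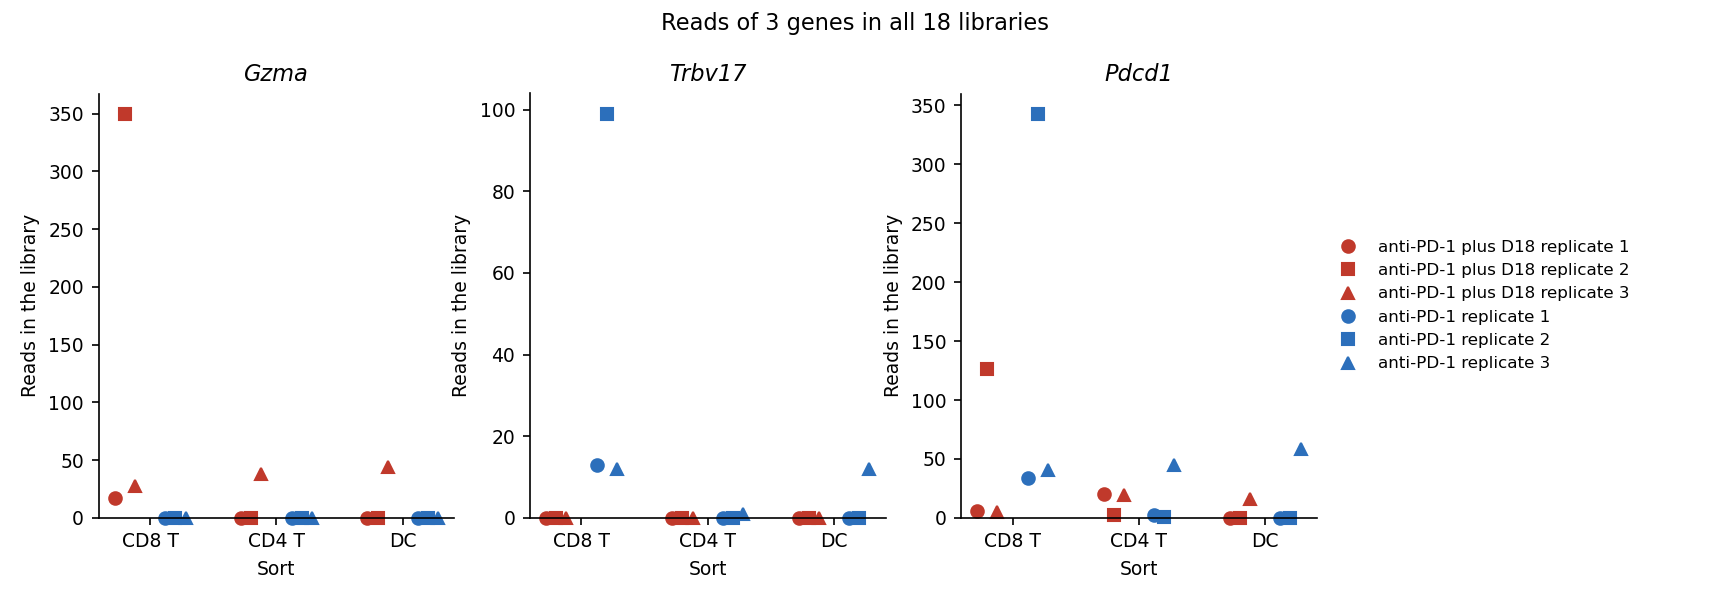
Reads of Gzma, Trbv17 and Pdcd1 in the 18 libraries, by sort, with D18 in red left of anti-PD-1 in blue and the replicate number as the symbol (linear axes from 0, reads not scaled for depth). In the CD8 T sort Gzma is above 0 in the 3 D18 libraries, at 17 to 350 reads, and Trbv17 in the 3 anti-PD-1 libraries, at 12 to 99 reads. In the CD4 T and DC sorts both genes are read in libraries numbered 3, and Gzma in those with D18.

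Pdcd1, the target of the antibody, was lower with D18. It had 11.2, 43.1 and 8.42 normalised reads with D18, against 45.8, 190 and 39.4 with anti-PD-1. Each D18 library was below the anti-PD-1 library of its number, and the groups overlapped because D18 replicate 2 lay above anti-PD-1 replicate 3. The log2 change was -2.05 ± 0.77 (SE, n = 3 per group), with an adjusted p of 0.564 without the block and 0.0141 with it, and -1.23 within the set. Per 100 T cell list reads the groups did not overlap, with 0.946, 3.11 and 1.47 with D18 and 4.73, 13.4 and 9.56 with anti-PD-1. Pdcd1 lies at chr1:94038305-94052553 (mm10, minus strand). Its promoter (chr1:94052504-94052803, minus strand, RefSeq on GRCm38.p6) is shown beside that of Gzma because the gene encodes the target of the antibody, and no interferon-stimulated, gamma-activated or AP-1 motif was found in this window.
Pdcd1: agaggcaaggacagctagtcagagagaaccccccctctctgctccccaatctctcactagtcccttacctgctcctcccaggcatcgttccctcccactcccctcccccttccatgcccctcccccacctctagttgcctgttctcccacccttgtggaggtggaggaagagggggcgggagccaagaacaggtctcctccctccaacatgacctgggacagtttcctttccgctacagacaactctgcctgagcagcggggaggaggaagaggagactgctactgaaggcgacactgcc

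Other inhibitory receptors and exhaustion genes lay mostly on the same side. Of 17 members 9 were tested, 2 above 0 and 7 below it, with a median of -0.72 (-0.21 within the set, with 3 of 9 above 0). With 1 library left out the median ran from -1.14 (without D18 replicate 2) to -0.50 (without anti-PD-1 replicate 2). With the block 1 passed, Pdcd1, beside 1.27% of all genes. Lag3, an inhibitory receptor for MHC class II, had 13.1, 48.9 and 13.5 normalised reads with D18 and 36.4, 114 and 24.0 with anti-PD-1 (-1.14 ± 0.71, adjusted p = 0.671, -0.21 within the set). Per 100 T cell list reads its groups did not overlap, at 1.10, 3.53 and 2.35 with D18 and 3.76, 8.05 and 5.83 with anti-PD-1. Tigit, a receptor that competes with CD226, had 7.48, 17.8 and 8.42 normalised reads with D18 and 10.8, 66.6 and 8.65 with anti-PD-1 (-0.79 ± 0.77). Havcr2, the gene of TIM-3, went the other way in 2 of 3 numbers, with 7.48, 32.8 and 11.8 with D18 and 1.35, 29.4 and 17.3 with anti-PD-1 (0.50 ± 0.99). By number, the median of the 9 members was -0.84, -1.03 and -0.61, so the list lay below 0 in each pair of libraries.

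Among naive, memory and stem-like genes, 4 of 16 members were tested, 3 of them higher, with a median of 0.41 that turned to -0.05 without D18 replicate 2 and to -0.11 without anti-PD-1 replicate 3. Il7r, the receptor chain for the survival cytokine interleukin-7, had 39.3, 22.2 and 30.3 normalised reads with D18, against 21.6, 2.78 and 16.3 with anti-PD-1. Its groups did not overlap, and its change of 1.44 ± 0.67 had an adjusted p of 0.617 (0.144 with the block, and a change of 0.83 within the set). Per 100 T cell list reads Il7r overlapped, at 3.31, 1.60 and 5.28 with D18 and 2.23, 0.195 and 3.96 with anti-PD-1. Tcf7 had 1.87, 5.47 and 3.37 normalised reads with D18 and 28.3, 17.8 and 3.84 with anti-PD-1 (-1.68 ± 1.10, adjusted p = 0.674). Its groups overlapped because D18 replicate 2 lay above anti-PD-1 replicate 3, and within the set its change was -0.16. Per 100 T cell list reads Tcf7 did not overlap, at 0.158, 0.395 and 0.587 with D18 and 2.92, 1.25 and 0.932 with anti-PD-1, values that rest on 1 to 32 reads a library.

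Effector-memory genes lay mostly on the higher side, with 11 of 15 tested members above 0, a median of 0.69 (0.45 without anti-PD-1 replicate 2 and 1.20 without D18 replicate 2), and 4 called with the block (against 1.27% of all genes). The 4 below 0 were Cx3cr1, Anxa1, Anxa2 and Lgals3, and Cx3cr1, at -3.53, had the largest change of the list in either direction. Within the set the median was 0.38, with 10 of 15 above 0. The list was drawn up with results of these samples known, so its count is not independent evidence. Ly6c2, a surface glycoprotein of memory-type CD8 T cells and of monocytes, had 409, 226 and 180 normalised reads with D18, against 90.3, 74.9 and 82.6 with anti-PD-1. The groups did not overlap, and the change of 1.62 ± 0.45 had an adjusted p of 0.534 without the block and 0.0300 with it. Per 100 T cell list reads Ly6c2 overlapped, at 34.5, 16.3 and 31.4 with D18, since anti-PD-1 replicate 3 lay above D18 replicate 2, while the other anti-PD-1 libraries had 9.32 and 5.28. Its near-identical neighbour Ly6c1 had 1 read in all, and how reads alike to both genes were assigned was not tested. Ctla2a, a cysteine protease inhibitor gene of activated T cells, had 76.6, 48.6 and 50.5 normalised reads with D18, against 29.7, 11.7 and 11.5 with anti-PD-1 (1.78 ± 0.47, 0.0315 with the block). Its paralog Ctla2b had 7, 22 and 3 reads with D18 and 6, 4 and 10 with anti-PD-1. S100a10, which pairs with annexin A2 at the plasma membrane, had 127, 69.8 and 77.5 normalised reads with D18, against 40.4, 28.9 and 29.8 with anti-PD-1 (1.41 ± 0.43, 0.0414 with the block). The groups of both genes did not overlap in normalised reads, but per 100 T cell list reads S100a10 did, at 10.7, 5.03 and 13.5 with D18 and 4.17, 2.03 and 7.23 with anti-PD-1. Crip1, a small LIM-domain protein gene, had 224, 20.5 and 109 normalised reads with D18 and 27.0, 5.55 and 44.2 with anti-PD-1, and its groups overlapped (2.01 ± 1.00, 0.0320 with the block). Its change was 0.85 within the set, 1.27 without D18 replicate 1 and 1.19 without anti-PD-1 replicate 2. Id2, a transcriptional regulator of effector differentiation, lay at 0.69 ± 0.47.

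Itgal, which encodes the alpha subunit of LFA-1, an integrin that fastens T cells to ICAM-1 on other cells, was the adhesion gene that passed with the block. It had 80.4, 74.6 and 50.5 normalised reads with D18, against 24.3, 30.5 and 11.5 with anti-PD-1 (1.66 ± 0.47, adjusted p = 0.534, 0.0340 with the block, and 2.44 within the set). Its beta chain gene Itgb2, also expressed by myeloid cells, had 28.0, 93.4 and 48.8 with D18 and 33.7, 64.4 and 62.5 with anti-PD-1 (-0.03 ± 0.54). Per 100 T cell list reads Itgal stood at 6.78, 5.38 and 8.80 with D18 and 2.50, 2.15 and 2.80 with anti-PD-1, and Ctla2a at 6.47, 3.50 and 8.80 with D18 and 3.06, 0.821 and 2.80 with anti-PD-1, without overlap for either. Over the adhesion and homing list, 8 of 10 tested members were higher, with a median of 0.39 that ran from 0.07 (without D18 replicate 2) to 0.80 (without anti-PD-1 replicate 2). Tln1, which links integrins to actin, had 52.3, 47.9 and 53.9 normalised reads with D18, against 25.6, 26.1 and 27.9 with anti-PD-1. Its groups did not overlap (0.93 ± 0.36, adjusted p = 0.564, 0.160 with the block). Reads of Creb3, on the opposite strand at the same place, cannot be told from those of Tln1 without strand, and Creb3 itself had 25 reads with D18 and 11 with anti-PD-1. Wnk1, a kinase gene of ion transport, had 63.6, 53.7 and 52.2 normalised reads with D18, against 18.9, 10.5 and 27.9 with anti-PD-1 (1.61 ± 0.44, adjusted p = 0.534, 0.0670 with the block, and 0.99 within the set).

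**Figure D4:**
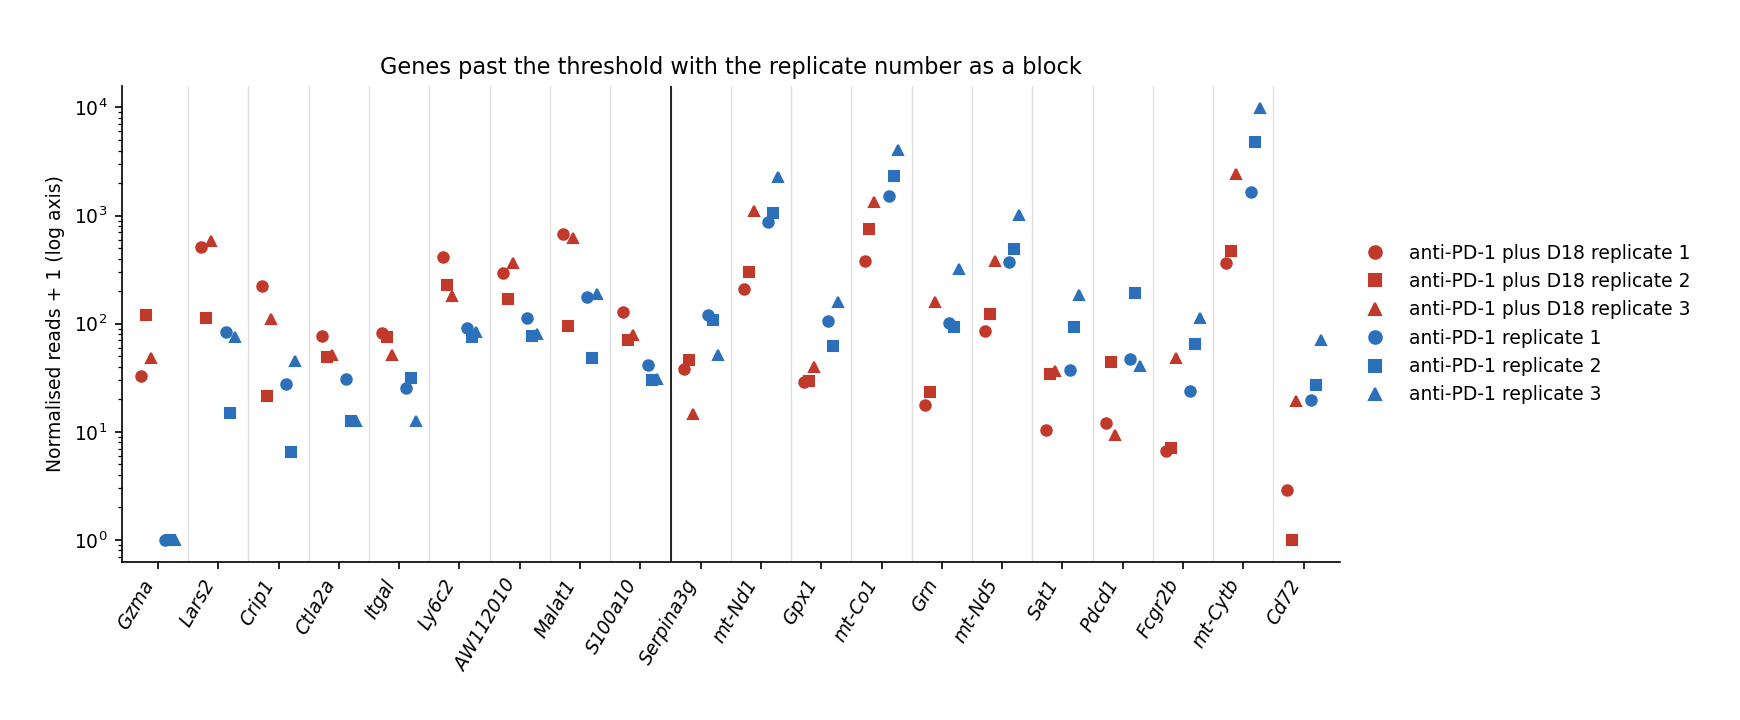
Normalised reads + 1 (log axis) of the 20 genes called with the replicate number as a block, in each library, with D18 in red left of anti-PD-1 in blue and the replicate number as the symbol. The 9 genes left of the black line are higher with D18 and the 11 right of it lower. Gzma sits at 0 reads in the 3 anti-PD-1 libraries, Ly6c2 and Itgal do not overlap, and the mitochondrial genes are highest in the libraries numbered 3 of each group.

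No gene of the T cell receptor complex list passed. Of 18 tested members 14 were higher, with a median of 0.26 (-0.06 without D18 replicate 2 and -0.21 without anti-PD-1 replicate 3), and 0 passed with or without the block. Within the set the median was 1.21, with 17 of 18 above 0. Cd8a lay at 0.14 ± 0.77, Cd8b1 at 0.46 ± 0.66 and Cd3e at 0.14 ± 0.52, so the 3 markers of the sort changed by less than their errors. The costimulation list had a median of -0.31 (3 of 6 higher). Within it, Tnfrsf18, the gene of GITR, had 7.48, 15.7 and 11.8 normalised reads with D18, against 39.1, 27.8 and 19.2 with anti-PD-1 (-1.23 ± 0.45, adjusted p = 0.564), and its groups did not overlap. Icos, a costimulator of the CD28 family, had 26.2, 37.3 and 20.2 with D18 and 0, 41.1 and 8.65 with anti-PD-1 (1.92 ± 1.21). Among 8 tested cytokine receptors and signal transducers, with a median of -0.17, Jak1, a kinase that signals for many of them, had 56.1, 42.4 and 47.2 normalised reads with D18, against 39.1, 31.6 and 20.2 with anti-PD-1, without overlap (0.70 ± 0.41, adjusted p = 0.671). Rgs1, a gene of chemokine-receptor desensitisation that resident T cells and myeloid cells express, had 78.5, 35.2 and 94.3 with D18, against 119, 127 and 202 with anti-PD-1 (-1.16 ± 0.50, adjusted p = 0.599).

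No chemokine gene passed with or without the block. The T cell chemokine gene Ccl5 had 379, 73.9 and 108 normalised reads with D18 and 200, 58.3 and 41.3 with anti-PD-1 (0.87 ± 0.78), and it was higher in each number. Ccl4 had 204, 13.7 and 113 with D18 and 12.1, 82.1 and 33.6 with anti-PD-1 (1.06 ± 1.06), and Ccl3 had 80, 7 and 46 reads with D18 and 19, 184 and 58 reads with anti-PD-1 (-0.65 ± 1.33). Both were low in D18 replicate 2 and high in anti-PD-1 replicate 2. Of 11 tested chemokine genes 8 were lower, with a median of -1.12 and 0 called. By number that median was 0.00, -2.50 and -0.13, and with 1 library left out it ran from -2.23 (without D18 replicate 3) to -0.07 (without D18 replicate 1). With the log2 ratio of macrophage to T cell list reads as a covariate it was 0.61, with 8 of 11 above 0.

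The medians of the interferon lists lay on opposite sides of 0, with 0 members called without the block and 1 with it, Serpina3g, beside 1.27% of all genes. In the list of type I interferon-stimulated genes 11 of 14 tested members (of 32) lay below 0, with a median of -0.68 (-0.37 without anti-PD-1 replicate 1 and -1.09 without anti-PD-1 replicate 2). Oas1a, which makes the activator of the antiviral nuclease RNase L, had 9.35, 10.3 and 8.42 normalised reads with D18, against 29.7, 30.5 and 36.5 with anti-PD-1. The libraries within each group were close and the groups did not overlap, and the change of -1.68 ± 0.36 had an adjusted p of 0.534 (0.0623 with the block, -1.86 within the set). Irf7, the factor that amplifies type I interferon, had 13.1, 8.55 and 50.5 with D18 and 56.6, 30.0 and 77.8 with anti-PD-1 (-1.45 ± 0.67). In the list of interferon-gamma-induced genes 10 of 13 tested members (of 24) lay above 0, with a median of 0.68. Igtp, an interferon-gamma-induced GTPase gene, had 33.6, 60.6 and 50.5 normalised reads with D18 and 36.4, 22.2 and 15.4 with anti-PD-1 (0.98 ± 0.45, adjusted p = 0.617), and it was higher in numbers 2 and 3. By number the medians of this list were -0.11, 1.04 and 1.04, while those of the type I list were -0.49, -0.36 and -0.66. With the covariate for macrophage to T cell reads, the type I median was -0.34 and the interferon-gamma median 0.71. Without the libraries numbered 3 the type I median was -0.64, with 6 of 14 above 0. The interferon-gamma median was then 0.38, with 10 of 13 above 0. Serpina3g, a protease inhibitor gene of activated and memory CD8 T cells in the interferon-gamma list, went the other way, with 20, 131 and 8 reads with D18, against 89, 194 and 52 reads with anti-PD-1. Its groups did not overlap in normalised reads (-1.57 ± 0.58, adjusted p = 0.564, 0.0315 with the block, and -0.79 within the set). Its paralog Serpina3f had 3, 6 and 2 reads with D18 and 30, 26 and 15 with anti-PD-1, so reads split between the pair would not turn the sign. Epsti1, an interferon-induced gene, lay at 1.07 ± 0.48 and Ifi47, a GTPase gene, at -0.57 ± 0.44.

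The promoters of Oas1a and Igtp are shown to set the lists side by side. The capitals mark matches to the interferon-stimulated response element and to the gamma-activated site (TTCNNNGAA, in 8.47% of all promoters), searched on both strands, and in Oas1a a pair of response element matches overlap each other. The sequences are from RefSeq on GRCm38.p6, that of Oas1a at chr5:120907476-120907775 (minus strand) and that of Igtp at chr11:58199306-58199605 (plus strand).
Oas1a: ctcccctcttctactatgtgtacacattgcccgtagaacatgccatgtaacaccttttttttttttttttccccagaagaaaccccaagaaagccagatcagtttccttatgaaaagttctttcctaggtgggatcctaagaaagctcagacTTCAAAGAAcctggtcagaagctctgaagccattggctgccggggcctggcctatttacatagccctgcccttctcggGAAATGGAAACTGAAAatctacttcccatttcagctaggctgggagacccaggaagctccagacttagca
Igtp: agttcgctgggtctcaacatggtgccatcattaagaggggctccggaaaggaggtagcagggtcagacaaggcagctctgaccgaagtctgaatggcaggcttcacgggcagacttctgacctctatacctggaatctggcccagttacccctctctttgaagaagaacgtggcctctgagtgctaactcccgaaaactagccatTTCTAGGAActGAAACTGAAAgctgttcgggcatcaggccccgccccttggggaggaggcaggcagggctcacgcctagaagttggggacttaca
Both promoters held both motifs. Of the type I list, 10 tested members matched a promoter, 5 with the response element and 4 with the gamma-activated site, and of the interferon-gamma list 9 matched, 5 and 6 with these motifs. The response element was thus about as frequent in both lists. Of the 1209 promoters of tested genes, 5.62% held the response element and 7.78% the gamma-activated site.

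**Figure D5:**
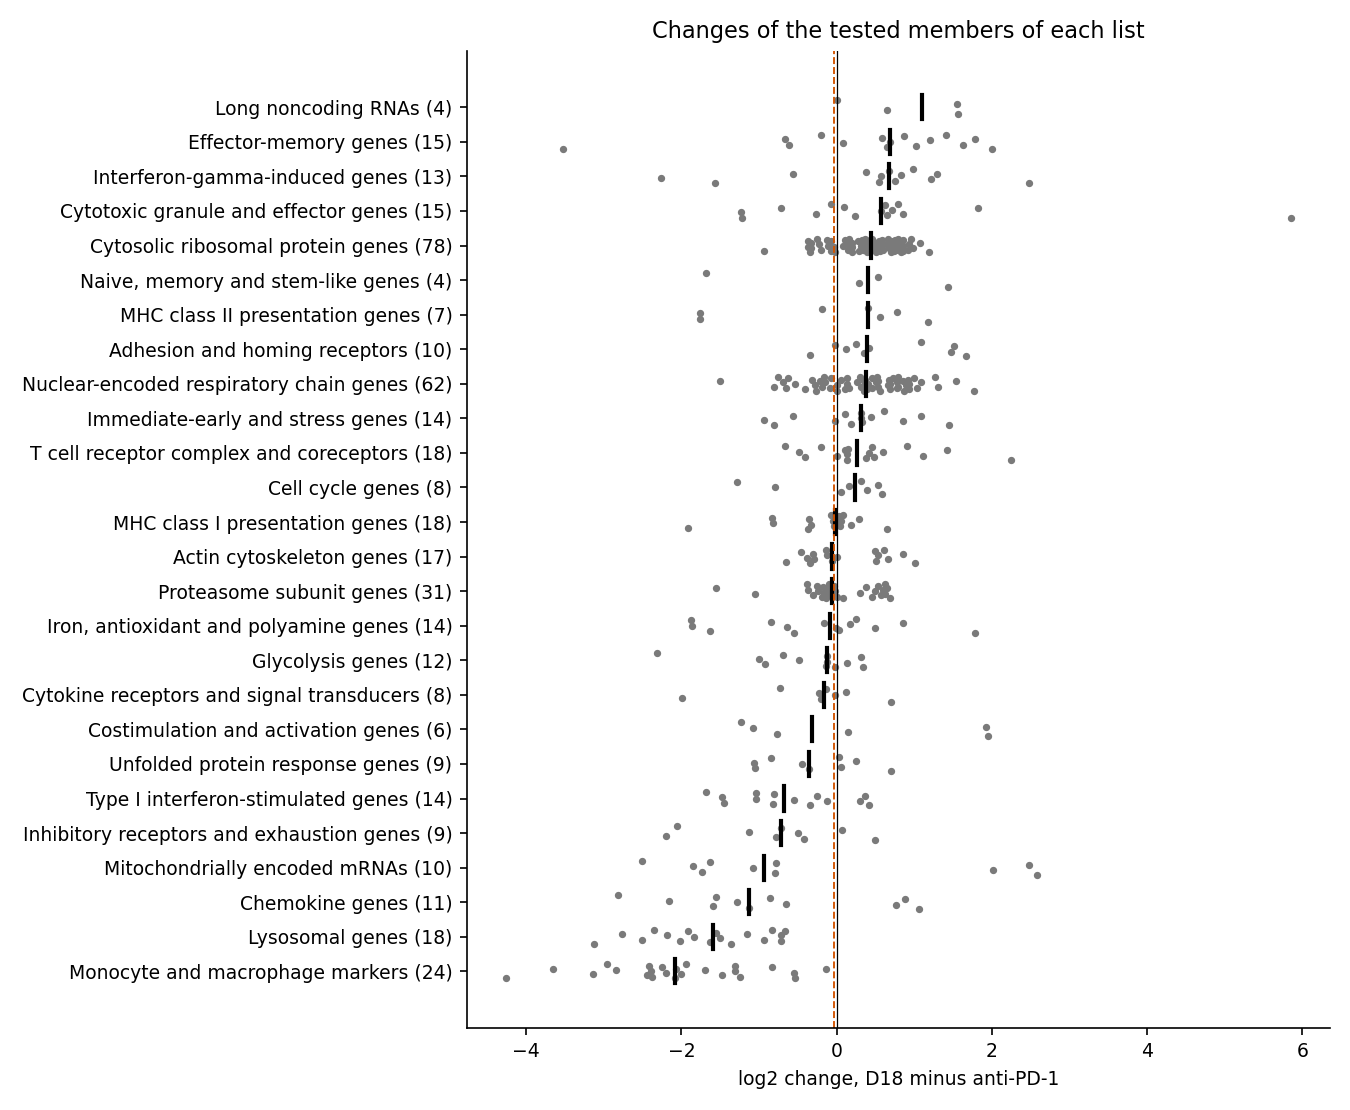
Log2 change (D18 minus anti-PD-1) of each tested member of the lists with at least 4 tested members, with the number tested in brackets, the list's median as a black bar and the median of all tested genes as a dashed line. Macrophage markers and lysosomal genes lie wholly below 0, at medians of -2.08 and -1.59, and long noncoding RNAs and effector-memory genes have the highest medians, 1.10 and 0.69.

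Genes of antigen presentation did not move together. MHC class I genes had a median of -0.03 over 18 tested members, and H2-K1 lay at 0.03 ± 0.39 and B2m, the shared light chain, at -0.08 ± 0.41. The median of 7 MHC class II genes was 0.40, but -1.92 within the set, where 0 of 7 were higher. Within the set the D18 libraries are compared with anti-PD-1 replicate 3, whose class II sum, 18095 CPM, was the highest of all. H2-Aa, a class II alpha chain, had 15.0, 119 and 202 normalised reads with D18 and 9.44, 35.0 and 329 with anti-PD-1 (0.55 ± 1.38), so its level followed the library number more than the treatment.

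All 24 tested members of the macrophage list were below 0, with a median of -2.08, -2.68 without the libraries numbered 3 and -3.10 within the set. With 1 library left out the median ran from -3.18 (without D18 replicate 3) to -0.89 (without D18 replicate 1), and 0 passed without the block and 1, Fcgr2b, with it, beside 1.27% of all genes. Apoe, a lipid carrier gene that tumour macrophages express strongly, had 35.5, 13.0 and 748 normalised reads with D18, against 1875, 704 and 2021 with anti-PD-1. D18 replicate 3 lay above anti-PD-1 replicate 2 and the other D18 libraries far below, and the change was -4.26 ± 1.35 (adjusted p = 0.551, 0.199 with the block). Without D18 replicate 3, Apoe and the complement receptor gene C3ar1 passed without a block (adjusted p = 0.0151 each). C3ar1 had 0, 0.684 and 43.8 normalised reads with D18, against 63.4, 36.1 and 62.5 with anti-PD-1. C1qb, of the first complement component, had 15.0, 46.5 and 340 with D18 and 201, 310 and 574 with anti-PD-1 (-2.37 ± 1.05). The lysozyme gene Lyz2 had 20.6, 82.5 and 955 with D18 and 80.9, 533 and 602 with anti-PD-1 (-1.31 ± 1.39), and its groups overlapped. Fcgr2b, the inhibitory Fc receptor gene of B and myeloid cells, had 5.61, 6.16 and 47.2 with D18 and 22.9, 63.8 and 111 with anti-PD-1 (-2.09 ± 0.89, 0.0409 with the block), and the B cell and myeloid receptor gene Cd72 had 1.87, 0 and 18.5 with D18, against 18.9, 26.1 and 70.1 with anti-PD-1 (-3.14 ± 1.07, 0.0382 with the block). With the covariate for macrophage to T cell reads these changes were -0.65 for Fcgr2b and -1.45 for Cd72. With the log2 ratio of macrophage to T cell list reads as a covariate, the median of the macrophage list was -0.29, that of the T cell receptor list -0.55 and that of the cytotoxic list -0.24, while 0 genes passed. This covariate is made from the summed reads of the macrophage and T cell receptor lists. Shifts of these lists and of their members, such as Fcgr2b, are therefore partly built in, and their cause was not tested.

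The lysosomal genes lay on the same side as the macrophage list, with all 18 tested members below 0 and a median of -1.59 (-0.70 without D18 replicate 1 and -2.55 without D18 replicate 3). With the covariate the median was -0.20 and 8 of the 18 were above 0. Lgmn, the gene of the protease legumain, had 5.61, 17.5 and 91.0 normalised reads with D18, against 181, 123 and 332 with anti-PD-1 (-3.13 ± 0.92, adjusted p = 0.534, 0.0759 with the block). Ctsb, the gene of cathepsin B, had 20.6, 69.5 and 195 with D18, against 240, 263 and 440 with anti-PD-1 (-2.18 ± 0.77). Grn, the gene of the lysosomal factor progranulin, had 16.8, 22.6 and 158 with D18 and 101, 92.1 and 323 with anti-PD-1 (-1.84 ± 0.90, 0.0300 with the block). All 3 are also expressed by macrophages, and in each gene D18 replicate 3, the D18 library richest in macrophage reads, was the highest of its group. With the covariate the changes were -1.47 for Lgmn, -0.93 for Ctsb and -0.20 for Grn. The cause of the lower levels of these 3 genes was not tested. Ptpn6, the gene of the phosphatase SHP-1 that acts downstream of inhibitory receptors in T cells and myeloid cells, had 0, 22.6 and 16.8 with D18, against 58.0, 67.7 and 45.2 with anti-PD-1 (-2.93 ± 1.11, adjusted p = 0.573, 0.213 with the block). The remaining genes picked for a small unadjusted p and groups that did not overlap were Myl6 (0.97 ± 0.50) and Rbm39 (0.74 ± 0.39) on the higher side and Lgals3bp (-1.49 ± 0.48), Capza2 (-1.31 ± 0.50) and Pdia3 (-1.91 ± 0.75) on the lower side, with adjusted p from 0.534 to 0.671.

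Of 10 tested mitochondrial messenger RNAs, 7 lay below 0 and 3, those that define the sets of libraries, above it. The median was -0.94, and 4 were called with the block, beside 1.27% of all genes. With 1 library left out the median ran from -1.93 (without D18 replicate 3) to -0.52 (without D18 replicate 2). With the covariate for macrophage to T cell reads it was 0.43, with 6 of 10 above 0. mt-Cytb, of respiratory complex III, had 366, 468 and 2451 normalised reads with D18 and 1646, 4801 and 9893 with anti-PD-1 (-2.51 ± 0.89, adjusted p = 0.564, 0.00641 with the block, -3.72 within the set). mt-Co1, of complex IV, had 381, 758 and 1349 with D18, against 1517, 2308 and 4068 with anti-PD-1 (-1.73 ± 0.60, 0.0120 with the block). mt-Nd1 and mt-Nd5, of complex I, lay at -1.63 ± 0.69 (0.0245 with the block) and -1.85 ± 0.64 (0.0120 with the block). Reads of mt-Nd5 cannot be told from those of mt-Nd6 on the opposite strand. Each of the 4 was lower with D18 in every number, and with the covariate their changes were -1.11 for mt-Cytb, -0.90 for mt-Co1, -0.45 for mt-Nd1 and -0.78 for mt-Nd5. The 3 members above 0 were mt-Atp6, mt-Co2 and mt-Co3, at 0 reads in anti-PD-1 replicates 1 and 2. Nuclear-encoded respiratory chain genes did not share the sign, with 45 of 62 tested members above 0, a median of 0.38 (0.05 without D18 replicate 1 and 0.93 without D18 replicate 2) and -0.06 within the set. Cytosolic ribosomal protein genes were higher in 63 of 78 tested members, with a median of 0.44 (-0.02 without D18 replicate 1 and -0.14 without anti-PD-1 replicate 2), and 0 of either list passed.

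Lars2, the gene of the mitochondrial leucyl-tRNA synthetase, had the smallest p with the block. It had 516, 113 and 584 normalised reads with D18, against 83.6, 13.9 and 74.0 with anti-PD-1, without overlap (2.84 ± 0.86, adjusted p = 0.534 and 8.1e-04 with the block, 2.12 within the set). The mouse gene is known to hold a stretch alike to mitochondrial ribosomal RNA, and mt-Rnr2, the large ribosomal RNA of mitochondria, had 3687, 8678 and 14520 reads with D18 and 6105, 10361 and 17869 with anti-PD-1, so the value of Lars2 is uncertain. In the CD4 T sort Lars2 had 2134, 514 and 2571 CPM with D18 and 330, 41.6 and 741 CPM with anti-PD-1, and in the DC sort 1873, 8415 and 2516 CPM with D18, against 773, 58.5 and 608 CPM with anti-PD-1. The groups overlapped in the CD4 T sort and not in the DC sort. Among long noncoding RNAs, all 4 tested were above 0, with a median of 1.10. AW112010, an interferon-induced transcript of T cells and myeloid cells, had 292, 168 and 360 normalised reads with D18, against 111, 76.0 and 79.8 with anti-PD-1 (1.56 ± 0.45, 0.0313 with the block). Malat1, a nuclear transcript of most cells, had 682, 94.4 and 615 with D18 and 174, 47.7 and 187 with anti-PD-1 (1.55 ± 0.88, 0.0313 with the block, 0.86 within the set), and its groups overlapped.

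Of the metabolic genes below, none passed without the block, and Gpx1 and Sat1 passed with it. Gpx1, the gene of a peroxide-reducing selenoenzyme, had 28.0, 28.7 and 38.7 normalised reads with D18, against 104, 61.1 and 157 with anti-PD-1, without overlap (-1.63 ± 0.47, adjusted p = 0.534, 0.0315 with the block). Sat1, which acetylates polyamines for export, had 9.35, 33.2 and 35.4 with D18, against 36.4, 91.6 and 185 with anti-PD-1 (-1.88 ± 0.72, 0.0245 with the block). With the covariate for macrophage to T cell reads the changes were -1.20 for Gpx1 and -1.08 for Sat1. Per 100 T cell list reads the groups of both genes overlapped. Their list of iron, antioxidant and polyamine genes had a median of -0.09 over 14 tested members. Bnip3, a mitophagy receptor gene that hypoxia induces, had 13.1, 15.1 and 8.42 with D18, against 31.0, 27.8 and 39.4 with anti-PD-1 (-1.37 ± 0.39, adjusted p = 0.534, 0.119 with the block). Glycolysis genes had a median of -0.13 over 12 members, and Tpi1, an enzyme of that pathway, had 80.4, 136 and 62.3 with D18, against 154, 191 and 189 with anti-PD-1 (adjusted p = 0.612). Medians of the remaining lists were 0.31 for immediate-early and stress genes, -0.36 for unfolded protein response genes, 0.23 for cell cycle genes, -0.06 for actin cytoskeleton genes and -0.07 for proteasome subunits, with 0 members called with the block in any of them.

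Whether these changes were particular to the CD8 T sort was tested against the other sorts of the series, for genes high enough in both sorts. Gzma, Lag3, Prf1 and Ifng could be tested against neither sort. Cd8a could not be tested against CD4 T, nor Pdcd1, Ctla2a and Cd3e against DC. The D18 change in CD8 T minus that in CD4 T passed for 0 of 916 genes (0%, with 18 at an unadjusted p under 0.05), and the change in CD8 T minus that in DC for 0 of 816 (0%, with 2), so no change above can be called particular to CD8 T cells. The smallest p of the first difference belonged to Tpm4, a tropomyosin gene, at -0.83 in CD8 T and 1.12 in CD4 T (difference -1.96 ± 0.64, adjusted p = 0.992), followed by Gpr65, Zbp1, Metap2 and Sh2d2a. Gpr65, a proton-sensing receptor gene, had 15.0, 3.42 and 18.5 normalised reads with D18, against 47.2, 37.7 and 33.6 with anti-PD-1 in the CD8 T sort (-1.85 ± 0.58, adjusted p = 0.534). The smallest p of the second difference belonged to Epsti1, Usp18, Ifi213, Rnase4 and Plac8. Usp18, an interferon-induced brake on interferon signalling, lay at 0.42 in CD8 T and -2.53 in DC (difference 2.95 ± 1.22, adjusted p = 0.986). Pdcd1 changed by -2.05 in CD8 T and by 1.14 in CD4 T (difference -3.19 ± 1.54, adjusted p = 0.992). In the CD4 T sort it had 20, 2 and 19 reads with D18 and 2, 1 and 45 with anti-PD-1. Anti-PD-1 replicates 1 and 2 of that sort held 17 and 34 reads of the T cell receptor list. The opposite signs of Pdcd1 thus cannot be told apart from T cell content. When the libraries numbered 3 of both sorts were left out, 14 of 916 genes passed against CD4 T, all lower in the difference. Among them were the T cell genes Lck, Cd2, Cd3d and Il2rb. In the CD4 T sort anti-PD-1 replicates 1 and 2 held 0 and 1 reads of Cd3e, against 23 and 10 in D18 replicates 1 and 2, so that difference cannot be told apart from T cell content. Gzma was read in D18 replicate 3 of both other sorts, with 38 reads in CD4 T and 44 in DC, and in none of their other 10 libraries. Those replicates also held 83 and 87 reads of Cd8a, and no source used here says whether they are independent of the CD8 T library of the same number. Trbv17 had 1 read in CD4 T and 12 in DC, each in anti-PD-1 replicate 3, beside 15 and 71 reads of Cd8a.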

How the data were processed

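Per the labels' protocols, cells of MC38 tumours were sorted into lysis buffer and their RNA turned into cDNA by Smart-Seq2, a method without strand information or molecular identifiers. The submitters' processing notes name STAR 2.4.0, HTSeq 0.6.1, DESeq2 (no version given) and the build mm10. The deposited values are on a log2 scale after a variance-stabilising transform by the authors, as the values themselves show. Undoing it and dividing by the smallest value above 0 gave whole reads for 100% of the values (tolerance 0.001). Normalised reads are these reads divided by median-ratio size factors, and CPM are recovered reads scaled to a common library total.

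Genes with a mean of at least 10 normalised reads over the 6 libraries entered limma 3.58.1 under R 4.3.3 (trend and robust empirical Bayes) on log2(normalised reads + 1), without a block, at a Benjamini-Hochberg adjusted p of 0.05 over all tested genes, so a log2 change understates that of genes with few reads. Every adjusted p is from limma, with 3 libraries per group unless libraries are said to be left out. Differences between sorts were tested as a limma contrast over 12 libraries. A check of limma on simulated counts with known changes was also run, and no statement here rests on it. Samples were grouped by the cell type, treatment and replicate number in the labels. Same-numbered libraries deviated together (correlations of 0.36, 0.51 and 0.56, against -0.34 to -0.18 for other pairs), which is the only source of the pairing. Deviations from a group mean sum to 0, so positive values for same-numbered libraries force negative ones among the others. Alternatives were another scaling, limma-voom, other filters and pseudocounts, the replicate block, terms for the mt-Co2 sets and for cell content, and libraries left out. Python 3.11.15 with numpy 2.4.6, pandas 2.3.3 and matplotlib 3.10.9 served for tables and plots.

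The members, the gene lists and the tests were chosen with earlier results of these data known. Genes were named where they passed with or without the block, were among the 12 per direction with the smallest unadjusted p and groups that did not overlap (and a mean of 50 or more where higher), were among the 3 members of a list with the highest level, were in a fixed set of immune genes, or were among the 5 with the smallest p of a difference between sorts. Of 123 genes so named, those with a change near 0 are given through their lists. Trbv17 and the other Trbv genes, Gzmk, Serpina3f, Rab37, Irf4, Kat2b, Zfp524, Cx3cr1, Anxa1, Anxa2, Lgals3 and the genes of the 14 called against CD4 T were chosen after their values were seen. Symbols were found for 98.9% of gene IDs, and promoters (RefSeq, GRCm38.p6) for 1209 of the 1569 tested genes.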

Additional observations from a re-analysis of the deposited data

How the results depend on the processing

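The count of called genes depended on the filter and on the pairing. In place of 0, limma called 1 gene on the deposited log2 values (Gzma, adjusted p = 0.0499), 22 of 14497 genes without a filter on low reads (2 higher and 20 lower with D18) and 20 with the replicate block. With the replicate block the count was 15 without the libraries numbered 1, 28 without those numbered 2 and 1 without those numbered 3. Leaving out 1 library at a time without a block gave 0 to 2 genes, the 2 being Apoe and C3ar1 without D18 replicate 3. Quantile normalisation, scaling to nuclear reads, limma-voom, a filter at 100 mean reads, pseudocounts of 0.1 and of 10, the term for the mt-Co2 sets, the covariate for the macrophage to T cell ratio and omission of both libraries numbered 3 each gave 0. For the difference from CD4 T the count was 14 without the libraries numbered 3 of both sorts and 0 under the other alternatives tried, and for the difference from DC it was 0 under each. The replicate block left both differences at 0.

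Of 1767 alternative values for 87 genes named in the text, 71 turned the sign, in 28 genes. Quantile normalisation turned B2m (0.73) and Itgb2 (0.02), and limma-voom turned B2m (0.01), Ccl3 (0.49), H2-K1 (-0.00) and mt-Rnr2 (0.13). The term for the sets turned H2-Aa (-2.17), Havcr2 (-0.25), Lck (0.41), Plac8 (-0.17), Sh2d2a (0.61), Tigit (0.25), Zbp1 (-0.07), mt-Atp6 (-2.41), mt-Co2 (-1.05) and mt-Co3 (-1.21). The covariate turned B2m (0.11), Cd2 (-0.70), Cd3d (-0.38), Cd3e (-0.56), Cd8a (-0.92), Cd8b1 (-0.54), Gzmk (-0.41), H2-K1 (-0.13), Il2rb (-0.78), Itgb2 (0.10), Lyz2 (0.89), Nkg7 (-0.24), mt-Nd6 (0.59) and mt-Rnr2 (1.01). With the replicate block, omission of the libraries numbered 1 turned Ccl4 (-0.39), Cd8a (-0.11), Havcr2 (-0.18), Ifng (-0.63), Itgb2 (0.09) and Plac8 (-0.10), of those numbered 2 B2m (0.07), Ccl3 (1.48), H2-Aa (-0.04) and mt-Rnr2 (0.13) and of those numbered 3 Itgb2 (0.14), and without a block the last turned Itgb2 (0.14). With 1 library left out, genes whose sign turned ranged for B2m from -0.24 to 0.04, Ccl3 from -1.72 to 1.01, Cd2 from -0.39 to 0.90, Cd3d from -0.03 to 0.84, Cd3e from -0.23 to 0.51, Cd8a from -0.40 to 0.86, Cd8b1 from -0.10 to 1.02, H2-Aa from -0.58 to 1.92, H2-K1 from -0.08 to 0.13, Havcr2 from -0.61 to 1.23, Ifng from -0.05 to 1.64, Il2rb from -0.40 to 0.65, Itgb2 from -0.46 to 0.39, mt-Rnr2 from -1.04 to 0.48, Tigit from -1.30 to 0.10 and Usp18 from -0.05 to 0.81. Cd2, Cd3d, Cd3e, Cd8a, Cd8b1 and Lyz2 belong to the lists that make the covariate, so their turns with it are partly built in. The cause of the turns of sign was not tested. Among list medians, quantile normalisation turned MHC class I genes (0.04) and actin cytoskeleton genes (0.05). The term for the sets turned cytokine receptors (0.25), MHC class I (0.08), MHC class II (-1.92), cell cycle (-0.41), actin (0.09), nuclear-encoded respiratory chain (-0.06) and proteasome genes (0.01). The covariate turned the T cell receptor (-0.55), cytotoxic (-0.24), naive and memory (-0.13), chemokine (0.61), iron and antioxidant (0.33), unfolded protein response (0.02) and mitochondrial lists (0.43), and omission of both libraries numbered 3 turned cytokine receptors (0.06), MHC class I (0.06) and proteasome genes (0.12). Leaving out 1 library turned, at the farthest, MHC class II genes to -0.58, cell cycle genes to -0.42, the T cell receptor list to -0.21, ribosomal protein genes to -0.14, naive and memory genes to -0.11, cytokine receptors to 0.22, proteasome genes to 0.13, MHC class I genes to 0.09, actin genes to 0.08 and iron and antioxidant genes to 0.07, and took respiratory chain genes to -0.00.

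Depth limits the genes below the mean of 10 normalised reads, which were not tested. With 3 libraries a group and a median standard error of 0.55, changes of a log2 size near 1 could not be told from the spread between libraries, and a call that is missing does not show that levels were alike.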
